A study of Rattus norvegicus with 17 samples.

Results

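Cardiac fibroblasts are the matrix-producing cells of the heart, and cultures of ventricular myocytes from newborn animals usually carry some of them, because both cell types come off the same tissue. Fibroblasts divide in culture, while most myocytes stop dividing soon after birth, so fibroblast marker RNA is commonly read as a sign of what a culture contains. The 10 genes described here are markers of this kind: the growth factor receptors Pdgfra and Pdgfrb, the collagen receptor Ddr2, the surface proteins Thy1 and Fap, the transcription factor Tcf21, the matrix protein Mfap5, the intermediate filament Vim and the small calcium-binding proteins S100a4 and S100a6. They were taken as a fixed list of names, chosen with earlier results of these data known. All 10 were found among 14506 named genes. Each had 1 probe set on the array, out of 29214 probe sets in all.

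The cultures were ventricular myocytes of newborn Sprague-Dawley rats, with a stated culture age of 5 days, and each sample's total RNA was hybridised to an Affymetrix array of its own. Nocturnal hemodialysis (NHD) is dialysis done overnight, and uremic plasma comes from patients whose kidneys have failed. The 17 arrays were 6 of cultures with 10% uremic plasma drawn before NHD, 6 of cultures with 10% uremic plasma drawn after NHD, 3 of cultures with control plasma, and 2 of cultures treated with phenylephrine, which stimulates alpha-adrenergic receptors and enlarges myocytes in culture. The labels give neither the share of control plasma nor the dose, duration or plasma of the phenylephrine cultures, and any effect of these cannot be told apart from that of the group. The titles call each array a biological replicate but do not state whether replicates were separate cultures or plasma donors. The p-values thus set group differences against the scatter of these samples alone, which may be partly technical. The titles of before NHD replicates 2 and 3 carry more than 1 number, of which the last was taken. The authors deposited RMA values on the log2 scale, where 1 unit is a doubling of signal; RMA brings all arrays to nearly the same distribution. Differences are in log2 units with the standard error (SE) of a limma fit of all 17 arrays, and a gene was called when its p-value adjusted over 29214 probe sets was below 0.05. Precision is limited by having 2 to 6 arrays per group.

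Array medians lay between 6.89 and 7.03. Spread differed between groups: the SD of the median probe set was 0.249 among before NHD arrays, 0.160 among after NHD arrays, 0.139 among control arrays and 0.0941 among phenylephrine arrays, while the fit uses a common spread. All 17 measured cardiomyocyte genes of a list of 18 were at or above the array median on all 17 arrays. Of the 10 fibroblast markers, 3 to 9 were at or above it before NHD, 5 to 9 after NHD, 6 or 7 on the control arrays and 9 on both phenylephrine arrays. In RNA of a whole culture, fewer cells of a type and less RNA per cell cannot be told apart.

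Over the 17 arrays, Ddr2 spanned 4.22 log2 units, Pdgfrb 3.32, Thy1 2.60 and Pdgfra 2.49, and Vim spanned 0.86. Pdgfrb (probe set 10802040), the receptor for PDGF-B chains that also marks pericytes, read 8.49, 8.83 and 8.60 on the control arrays and 10.19 and 9.92 with phenylephrine. Before NHD it read 7.75, 7.01, 9.89, 6.87, 6.89 and 9.89 in replicates 1 to 6, and after NHD 8.65, 7.05, 9.74, 7.01, 8.26 and 9.47. Replicates 3 and 6 of both plasma groups thus stood above the control arrays, replicates 2 and 4 of both groups stood below them, and the before NHD and after NHD groups overlapped almost completely.

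Ddr2 (probe set 10769695), a receptor tyrosine kinase that binds fibrillar collagen, ran from 6.51 to 10.73 over the 17 arrays, an 18.6-fold range. Its before NHD values were 7.50, 6.51, 9.99, 7.03, 7.05 and 10.13 in replicates 1 to 6, and its after NHD values 8.82, 7.11, 9.88, 7.02, 8.55 and 9.58. The control arrays lay close together at 8.45, 8.60 and 8.63, in the gap between the high and the low arrays of the before NHD group and within the after NHD range. Phenylephrine gave 10.73 and 10.37, the 2 highest readings of the gene.

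Pdgfra (probe set 10776459), the receptor most used to mark fibroblasts in the heart, read 6.52, 6.16, 7.95, 6.12, 6.09 and 8.58 before NHD and 7.63, 6.64, 8.39, 6.41, 7.38 and 8.22 after NHD. It read 6.91, 7.24 and 7.06 with control plasma and 8.18 on both phenylephrine arrays. The order of arrays was again one of high replicates 3 and 6 and low replicates 2 and 4 in both uremic groups, and the after NHD range lay wholly within that before NHD.

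Thy1 (probe set 10909407), a lipid-anchored surface protein that is also found on neurons and lymphoid cells, lay at 6.99 to 7.05 with control plasma and at 8.26 and 8.50 with phenylephrine. Before NHD it had a lowest value of 6.70, a median of 6.92 and a highest of 8.89, and after NHD these were 6.89, 8.26 and 9.30. On 4 of the 6 before NHD arrays Thy1 lay below all control arrays, and on 5 of the 6 after NHD arrays above all of them. Fap (probe set 10845681), a surface protease of activated fibroblasts, ran from 4.63 through a median of 5.11 to 6.23 before NHD and from 4.50 through 5.04 to 5.83 after NHD. Its controls (4.97, 5.27 and 5.24) fell inside both ranges, and the phenylephrine arrays, at 6.0 and 5.63, stood above the controls but below the highest before NHD array.

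Tcf21 (probe set 10702306), a basic helix-loop-helix factor needed for the fibroblast lineage in the mouse heart, had a lowest value of 5.57, a median of 6.05 and a highest of 7.93 before NHD, and 6.05, 7.07 and 7.78 after NHD. Control arrays lay at 6.51 to 6.59 and phenylephrine arrays at 7.38 and 7.52. Mfap5 (probe set 10858499), a glycoprotein of elastic microfibrils, ran from 5.94 through 6.49 to 7.63 before NHD and from 6.50 through 7.08 to 7.39 after NHD, with controls at 6.44, 6.73 and 6.58 and phenylephrine at 7.31 and 7.09. Vim (probe set 10796445), the intermediate filament protein of fibroblasts, endothelium and leukocytes, read 12.83 to 12.84 with control plasma and 13.36 and 13.41 with phenylephrine. Its before NHD values ran from 12.61 through 12.93 to 13.39 and its after NHD values from 12.86 through 13.27 to 13.47. Vim lies near the top of the scale, which ends at 14.29, where differences are compressed. For all 3 genes the before and after NHD groups overlapped, and the phenylephrine arrays lay above the controls.

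**Figure D1:**
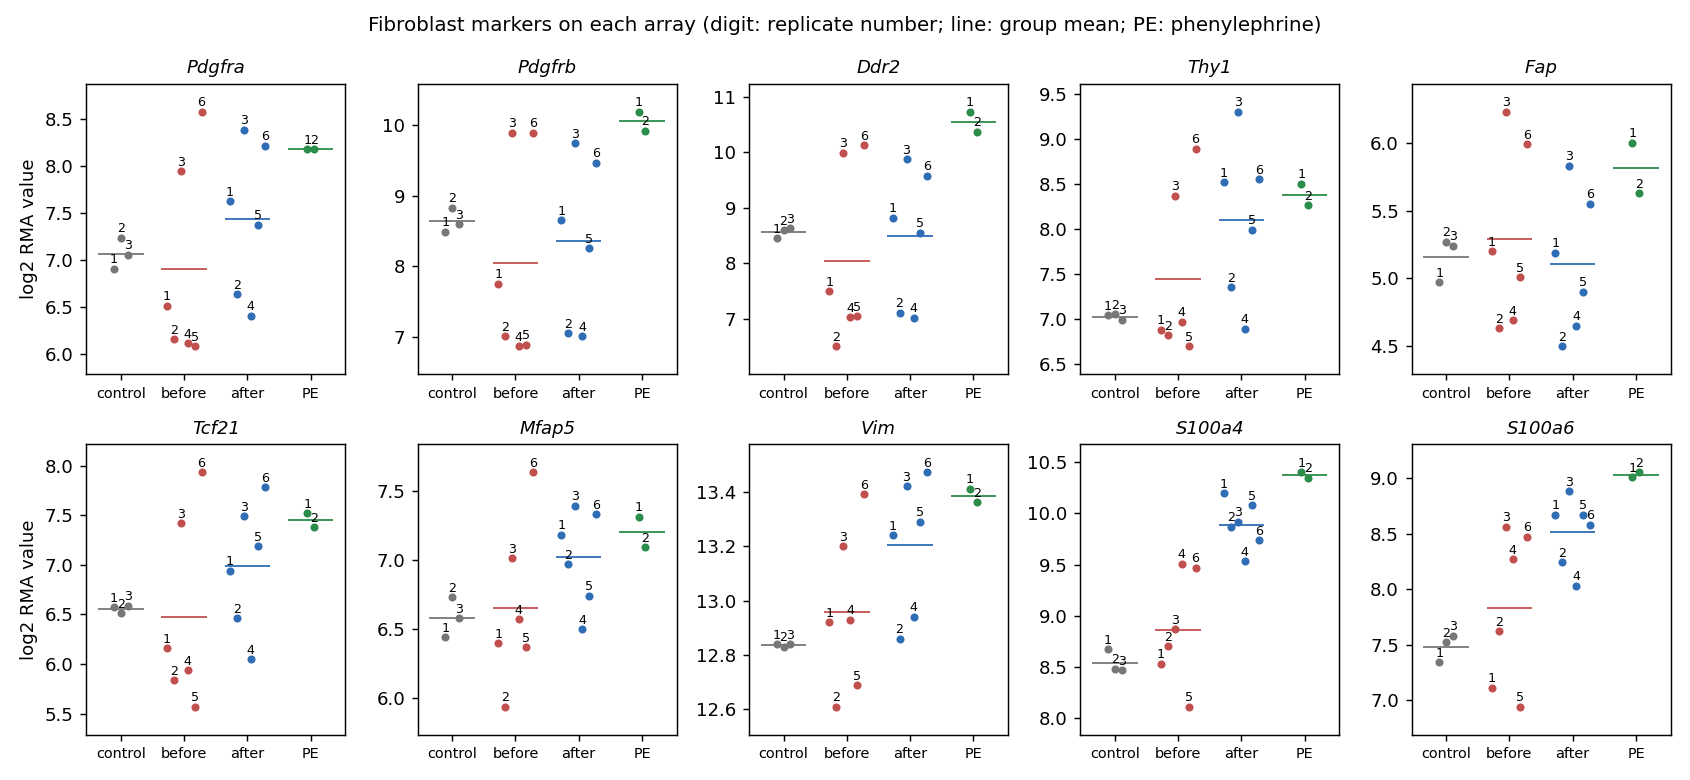
Log2 RMA value (vertical axis) of each fibroblast marker on each of the 17 arrays, by group (horizontal axis); each point is an array, the digit its replicate number and the line the group mean. Control arrays lie close together, before and after NHD arrays spread over most of each panel for the 8 genes other than S100a4 and S100a6, and S100a4 separates the after NHD arrays (9.53 to 10.20) from the before NHD arrays (8.11 to 9.51), with replicate 4 of both groups almost level.

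S100a4 and S100a6 both encode small EF-hand proteins. S100a4, also called fibroblast-specific protein, is in addition made by leukocytes and other motile cells, and S100a6 by many dividing cells. In the GRCr8 assembly the genes are close neighbours on chromosome 2, with 1 protein-coding gene, S100a5, between them. Because these were the only markers called in any of the 6 comparisons of the 17-array fit, the 250 bases before their starts are shown, from RefSeq on GRCr8, plus strand, 5′ to 3′, with capitals marking matches to the TATA box or the GC box.
S100a4, chr2:178388279-178388528: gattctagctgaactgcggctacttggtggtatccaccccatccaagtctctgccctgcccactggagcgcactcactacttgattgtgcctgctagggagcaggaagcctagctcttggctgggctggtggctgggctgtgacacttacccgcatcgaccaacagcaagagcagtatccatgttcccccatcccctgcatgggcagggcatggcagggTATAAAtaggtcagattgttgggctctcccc
S100a6, chr2:178398287-178398536: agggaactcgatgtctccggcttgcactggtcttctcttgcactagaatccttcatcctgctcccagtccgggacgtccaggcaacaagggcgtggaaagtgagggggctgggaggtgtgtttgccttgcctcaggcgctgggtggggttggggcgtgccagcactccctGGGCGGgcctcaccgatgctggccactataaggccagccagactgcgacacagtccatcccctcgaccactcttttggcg
The S100a4 window held TATAAA, the core of a TATA box, starting 31 bases before the start, and the S100a6 window held GGGCGG, a GC box, 80 bases before it.

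Promoters were given for 7 of the 10 markers, and 4 motifs were searched on both strands. These were the TATA box as TATAAA, the GC box as GGGCGG, the AP-1 site as TGANTCA and the E-box as CANNTG; factors of the helix-loop-helix class, to which Tcf21 belongs, bind E-boxes. TATAAA was in 2 of the 7 windows (S100a4 and Vim) and in 12.9% of 33469 windows of the same length. GGGCGG was in 2 (S100a6 and Vim; 30.5% of all), TGANTCA in 1 (Pdgfra; 6.34%) and CANNTG in 3 (Pdgfra, Fap and Mfap5; 65.5%). No motif was shared by S100a4 and S100a6. These matches describe the letters of the windows, and these data hold no measure of binding there.

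S100a4 (probe set 10817057) read 8.53, 8.70, 8.87, 9.51, 8.11 and 9.47 in before NHD replicates 1 to 6 and 10.20, 9.87, 9.92, 9.53, 10.08 and 9.74 in after NHD replicates 1 to 6. The lowest after NHD array and the highest before NHD array, both replicate 4, were almost level. Before NHD replicate 6 (9.47) lay close below them, and the other before NHD arrays lay at 8.11 to 8.87. Control plasma gave 8.67, 8.48 and 8.47 and phenylephrine 10.40 and 10.35, so that the phenylephrine arrays were above all others.

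S100a6 (probe set 10817065) read 7.11, 7.62, 8.56, 8.27, 6.94 and 8.47 before NHD and 8.67, 8.24, 8.88, 8.03, 8.67 and 8.58 after NHD. Its control values were 7.34, 7.52 and 7.58 and its phenylephrine values 9.01 and 9.05. Before NHD replicates 3, 4 and 6 lay within the after NHD range and replicates 1 and 5 below the controls.

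The 8 markers other than S100a4 and S100a6 were high and low on much the same arrays. Among the 6 highest arrays of each of these 8 genes, after NHD replicates 3 and 6, before NHD replicate 6 and phenylephrine replicate 1 appeared for all 8, phenylephrine replicate 2 for 7 and before NHD replicate 3 for 6. Among the 6 lowest, before NHD replicate 2 appeared for all 8, before NHD replicates 4 and 5 and after NHD replicate 4 for 7, and before NHD replicate 1 and after NHD replicate 2 for 6. No control array was among the 6 highest for any marker. Low and high arrays thus occurred within the same plasma group.

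Across the 17 arrays, each marker was set against the mean of the other 9, as a description of likeness with no test, since the arrays share groups and normalization. Pearson's r was 0.98 for Pdgfra, 0.96 for Tcf21, 0.94 for Vim, 0.93 for Thy1 and Ddr2, 0.90 for Pdgfrb and Mfap5, 0.81 for Fap, 0.80 for S100a6 and 0.59 for S100a4. Spearman's rho ran from 0.55 for S100a4 to 0.95 for Pdgfra and Tcf21. Leaving out the 2 arrays farthest from the median of the other markers gave 0.55 for S100a4 and 0.76 to 0.98 for the rest. Within groups, taking deviations from group means, all 45 pairs of markers had r above 0, with a median of 0.87, from 0.19 for S100a4 with Fap to 0.99 for Pdgfrb with Ddr2. S100a4 and S100a6 had r = 0.79 with each other in this measure, and Fap and S100a6 had 0.60.

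**Figure D2:**
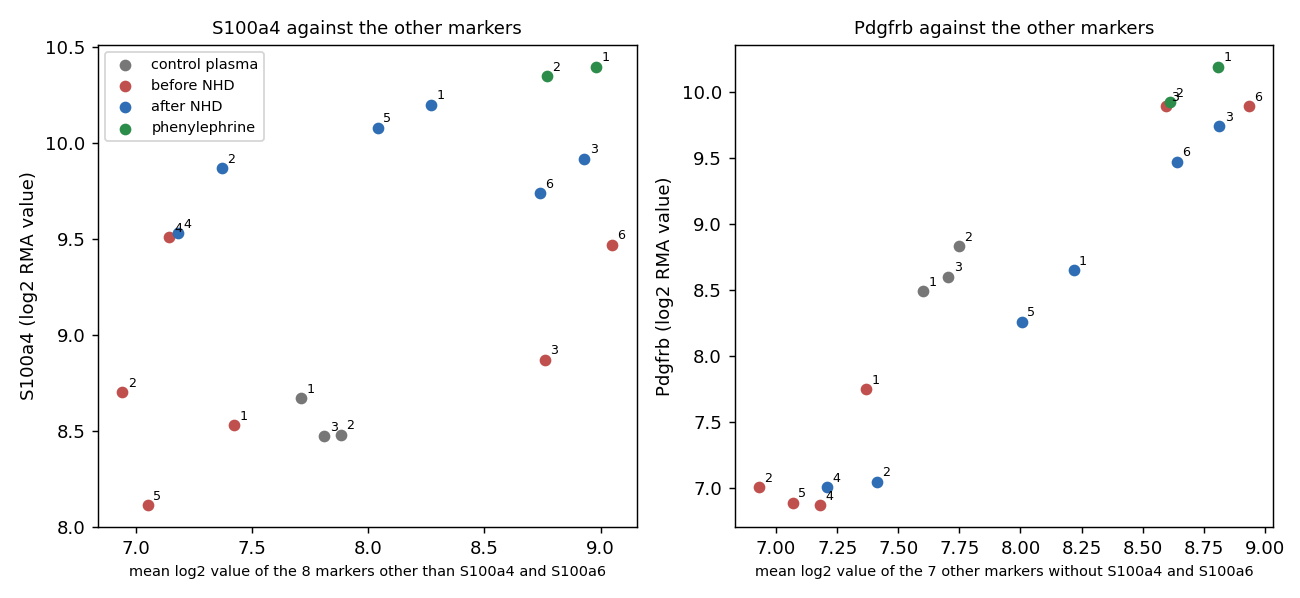
Log2 RMA value of S100a4 (left) and Pdgfrb (right) on each array against the mean log2 value of the markers other than S100a4, S100a6 and the gene plotted; colours are groups and digits replicate numbers. Pdgfrb is higher where the other markers are higher, while the after NHD arrays lie at 9.53 to 10.20 for S100a4 at low and high values of the other markers alike.

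The 5 other named genes most alike to the mean of the 10 markers over the 17 arrays were Emp3, a tetraspan membrane protein (r = 0.99, rho = 0.97), Postn, a matrix protein of activated fibroblasts (r = 0.98, rho = 0.96), the type I collagen chains Col1a1 (r = 0.98, rho = 0.98) and Col1a2 (r = 0.98, rho = 0.97), and the heparan sulfate proteoglycan Sdc2 (r = 0.98, rho = 0.97). Postn read 7.38 on before NHD replicate 2 and 10.96 on before NHD replicate 3, and Col1a1 read 8.57 and 11.27 on the same arrays. These genes were picked as the top of 14506, so the coefficients are high by selection. Without the 2 arrays farthest from the median of the markers' mean, r was 0.99 for Emp3 and 0.98 for the other 4.

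The comparison the series is named for set after NHD against before NHD plasma. S100a4 rose by 1.03 ± 0.20 log2 units (SE, n = 6 and 6), a 2.04-fold difference, with adjusted p = 0.040 in limma, and was the 1 marker of 10 that was called. Of all probe sets, 0.397% were called in this comparison and 0.288% were called higher, and in 0.294% all after NHD arrays lay above all before NHD arrays, as they did for S100a4. The exact two-sided permutation test over the same arrays gave p = 0.0022 for S100a4, the smallest that 6 against 6 can give. The means were 8.86 ± 0.55 (SD, n = 6) before and 9.89 ± 0.24 (SD, n = 6) after NHD.

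The call of S100a4 depended on which arrays were fitted. The difference stayed between 0.88 and 1.16 when any 1 of the 17 arrays was left out, but the adjusted p was below 0.05 only without before NHD replicate 4 (0.0024), before NHD replicate 6 (0.0065) or after NHD replicate 4 (0.024). In the other 14 cases, which include leaving out any control or phenylephrine array, it was 0.055 to 0.12. Of all probe sets, 9.06% were called without before NHD replicate 4, 9.21% without before NHD replicate 6 and 2.19% without after NHD replicate 4. The share was 0 to 0.144% without any other uremic or control array, and 0.397% with all arrays. In a fit of the 12 arrays alone, limma gave adjusted p = 0.14 for S100a4, and 0 of 29214 probe sets were called there (4614 at an unadjusted p under 0.05). With the mean of the 8 markers other than S100a4 and S100a6 as a covariate, an alternative added once the values were known, the S100a4 difference was 0.95 ± 0.19 (adjusted p = 0.056).

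The other 9 markers did not pass between after and before NHD. S100a6 had a difference of 0.69 ± 0.25 (adjusted p = 0.16), Thy1 of 0.66 ± 0.42, Pdgfra of 0.54 ± 0.44, Tcf21 of 0.51 ± 0.37, Ddr2 of 0.46 ± 0.64, Mfap5 of 0.36 ± 0.23, Pdgfrb of 0.32 ± 0.60, Vim of 0.25 ± 0.13 and Fap of -0.19 ± 0.28. The 95% intervals were widest for Ddr2 (-0.90 to 1.82) and Pdgfrb (-0.96 to 1.59) and narrowest for Vim (-0.04 to 0.53). The median of the 10 markers was 0.49, against -0.01 for all 14506 named genes.

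Before NHD plasma was then compared with control plasma, and 0 of the 10 markers were called by limma, with 0 at an unadjusted p under 0.05. Of all probe sets 4.93% were called, 2.88% as higher, and 25.1% had an unadjusted p under 0.05. Differences ran from -0.60 ± 0.74 for Pdgfrb to 0.41 ± 0.51 for Thy1, 6 of them above and 4 below 0, with a median of 0.10 (-0.05 for all named genes). All 10 before NHD ranges overlapped the control range, where 8.39% of all probe sets did not overlap and 3.49% lay wholly higher. The SD of the before NHD arrays was 1.60 for Ddr2 and 1.46 for Pdgfrb, against 0.10 and 0.18 among controls.

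After NHD plasma against control plasma gave 2 called markers of 10, both higher, where 12.9% of probe sets were called higher and 28.2% in either direction. S100a4 rose by 1.35 ± 0.24 (adjusted p = 0.0011) and S100a6 by 1.03 ± 0.31 (adjusted p = 0.021). S100a6 passed in 15 of 17 fits with 1 array left out, and not without control replicate 1 (adjusted p = 0.089) or control replicate 3 (adjusted p = 0.055). It also did not pass with the array's own SD as a covariate, which lowered the difference to 0.46 (adjusted p = 0.29). S100a4 passed in all 17.

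Thy1 came next with 1.08 ± 0.51 (adjusted p = 0.13), followed by Tcf21 and Mfap5 with 0.43 each (SE 0.46 and 0.28), Pdgfra with 0.38 ± 0.53 and Vim with 0.37 ± 0.16 (adjusted p = 0.11). Ddr2 (-0.07 ± 0.79), Fap (-0.06 ± 0.34) and Pdgfrb (-0.28 ± 0.74) lay near or below 0. The after NHD arrays of S100a4, S100a6 and Vim lay wholly above the controls, which 14.5% of all probe sets did. This comparison shares its control arrays with the one before it and its after NHD arrays with the first, so the 3 sets of differences are not independent.

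Phenylephrine gave the highest group mean of all 10 markers. Against control plasma, S100a4 rose by 1.84 ± 0.31 (adjusted p = 0.0013) and S100a6 by 1.55 ± 0.40 (adjusted p = 0.014), 2 called of 10 where 8.54% of probe sets were called higher and 18.7% in either direction. S100a6 lost its call without either phenylephrine array (adjusted p = 0.087 and 0.093), where the lone array was assumed to vary like the other groups. The other differences were 1.99 ± 1.02 for Ddr2, 1.41 ± 0.95 for Pdgfrb, 1.35 ± 0.66 for Thy1, 1.11 ± 0.69 for Pdgfra, 0.89 ± 0.59 for Tcf21, 0.65 ± 0.44 for Fap, 0.62 ± 0.36 for Mfap5 and 0.55 ± 0.21 for Vim (adjusted p = 0.083). The median of the 10 was 1.23, against -0.06 for all named genes.

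Both phenylephrine arrays lay above all 3 control arrays for all 10 markers, which 24.6% of all probe sets did. The standard errors above borrow the spread of the uremic groups. In a limma fit of these 5 arrays alone, all 10 markers were called higher, with adjusted p from 0.00020 for S100a4 to 0.021 for Fap. Of 29214 probe sets, 4483 were called higher and 4589 lower there, 31.1% in either direction. An exact permutation test of 3 against 2 arrays cannot go below p = 0.20, which all 10 markers reached.

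Against before NHD plasma, phenylephrine gave 1 called marker of 10, S100a4 (1.52 ± 0.28, adjusted p = 0.0063), where 1.98% of probe sets were called higher and 4.34% in either direction. S100a4 was not called without phenylephrine replicate 1 (adjusted p = 0.13) or 2 (0.089), or in a fit of the compared groups alone (0.13). Ddr2 (2.52 ± 0.91, adjusted p = 0.14), Pdgfrb (2.01 ± 0.85, adjusted p = 0.20) and S100a6 (1.20 ± 0.36, adjusted p = 0.069) also lay wholly above the before NHD arrays, as did 7.05% of all probe sets.

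Against after NHD plasma, limma called 0 of 10 markers (1 at an unadjusted p under 0.05, Ddr2), where 0.483% of probe sets were called higher, 0.979% in either direction, and 11.8% had an unadjusted p under 0.05. Differences ran from 0.18 ± 0.19 for Vim to 2.06 ± 0.91 for Ddr2, all above 0. S100a4, S100a6, Pdgfrb and Ddr2 did not overlap between these groups, which 11.6% of all probe sets did in this direction.

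**Figure D3:**
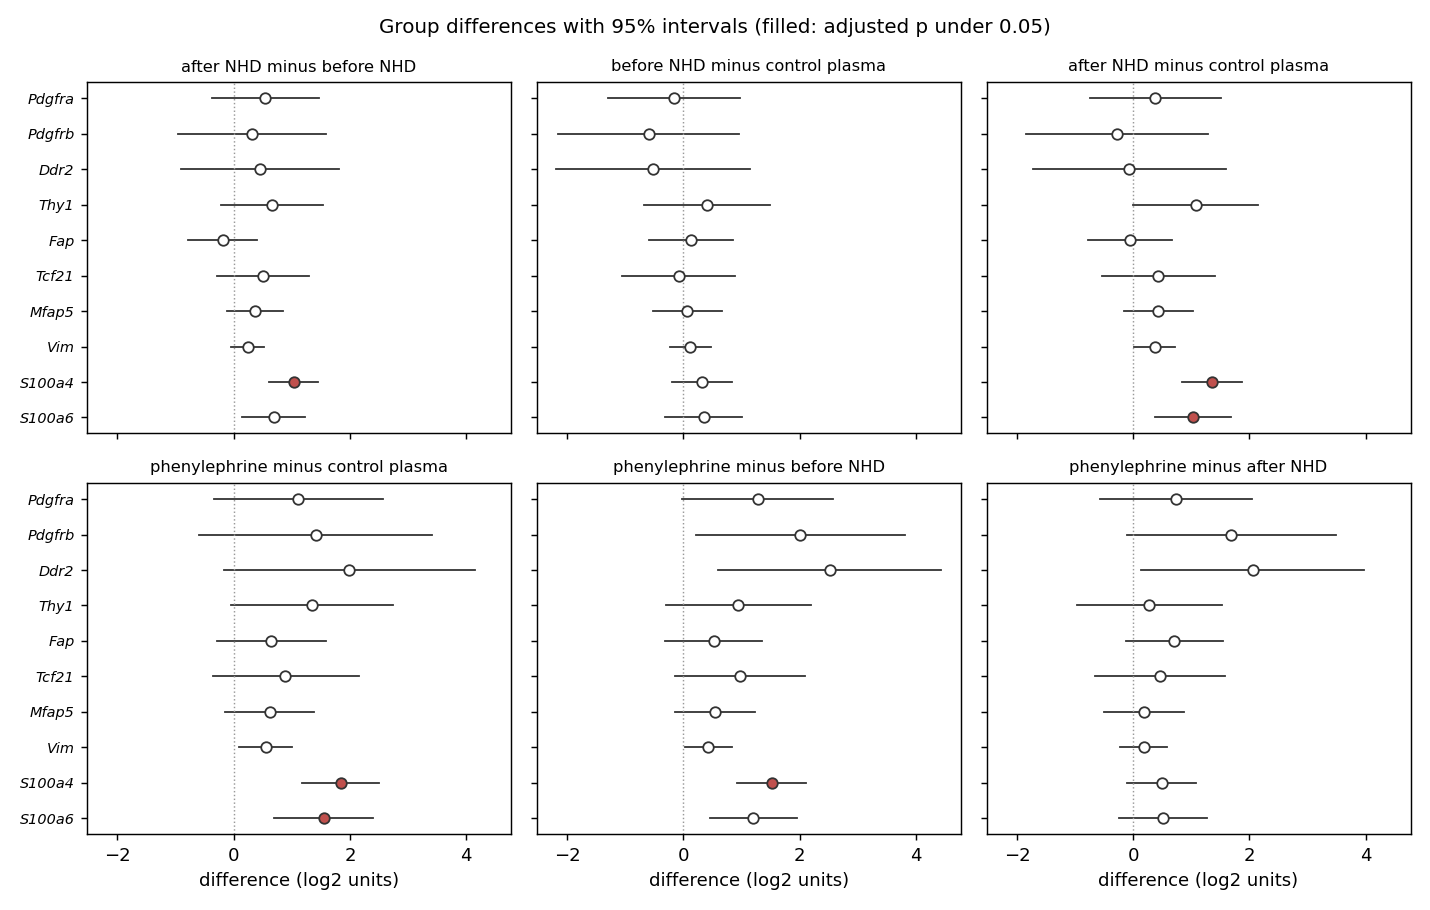
Differences of group means in log2 units (horizontal axis) with 95% intervals of the fit for each marker in the 6 comparisons; filled points have an adjusted p under 0.05. S100a4 is filled in 4 panels and S100a6 in 2, and the intervals of Pdgfrb and Ddr2 are the widest.

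In order of group means, phenylephrine was highest for 10 of 10 markers. Control plasma was lowest for 5 (S100a4, S100a6, Thy1, Vim and Mfap5), before NHD for 4 (Pdgfra, Pdgfrb, Ddr2 and Tcf21) and after NHD for 1 (Fap). For S100a4 the order was control plasma, before NHD, after NHD and phenylephrine. In it, before and after NHD were called apart. Control plasma and before NHD overlapped and were not called apart (0.32 ± 0.24), and after NHD and phenylephrine were not called apart either (0.49 ± 0.28), although their arrays did not overlap. S100a6 had the same order, with no neighbours called apart. For the 8 genes other than the S100 pair, no neighbours in the order were called apart.

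Further fibroblast and matrix genes, a separate list of 20 with 18 measured, followed the same arrays. Their mean log2 value was 10.38 and 10.30 on before NHD replicates 3 and 6 and 8.19 to 8.72 on the other before NHD arrays, 8.97 to 9.06 with control plasma, and 10.57 and 10.29 with phenylephrine. The after NHD means were 9.69, 8.58, 10.04, 8.24, 9.32 and 9.77 in replicates 1 to 6, with replicate 1 nearly level with replicate 6. Between after and before NHD, 0 of 18 were called by limma (0 at an unadjusted p under 0.05), with a median of 0.19. After NHD against control plasma, 4 rose and 0 fell, among them the calcification inhibitor Mgp (1.82 ± 0.39), osteoglycin (Ogn, 1.48 ± 0.40) and the matrix protein Sparc (0.61 ± 0.17), with a median of -0.06 over the list. With phenylephrine against control plasma, 3 rose and 0 fell: Fbln1, a basement membrane and elastic fibre protein (1.79 ± 0.30), Mgp (2.03 ± 0.50) and Sparc (0.95 ± 0.22), and the list median was 1.38. Of all probe sets, 12.9% were called higher after NHD and 8.54% with phenylephrine, each against control plasma.

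Genes of cell division moved beside S100a4. Their mean over 14 measured genes was 7.07 to 9.04 before NHD, with replicate 4 highest, 8.98 to 9.89 after NHD, with replicate 4 lowest, 7.67 to 7.70 with control plasma, and 9.84 and 10.34 with phenylephrine. Of these 14, 9 rose and 0 fell after against before NHD, led by Ccnb2, Kif20a and Plk1 (2.31 ± 0.33, 2.75 ± 0.43 and 2.22 ± 0.36), with a list median of 1.85, where 0.288% of all probe sets were called higher. Against control plasma, 10 rose after NHD and 11 with phenylephrine, where 12.9% and 8.54% of all probe sets were called higher. The list was chosen with earlier results of these data known, so its counts beside those shares are description only. The part of these genes in the S100a4 and S100a6 differences was not tested.

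Markers of other cells that such a culture can hold were read in the same fits. Between after and before NHD, limma called 0 of 17 cardiomyocyte genes, 0 of 8 smooth muscle and myofibroblast genes, 0 of 5 pericyte genes, 0 of 11 endothelial genes, 0 of 12 leukocyte genes, 0 of 6 epicardial genes and 0 of 6 neural genes, with 4, 1, 1, 1, 0, 0 and 1 of them, in that order, at an unadjusted p under 0.05 (18.5% of all probe sets). The part of these lists in the marker differences was not tested. The leukocyte list, whose cells also make S100a4, had a mean of 6.04 to 6.81 before NHD and 6.03 to 6.64 after NHD, and a summed level of 9.80 to 10.76 and 9.79 to 10.50 on the log2 scale. Before NHD, replicates 3 and 6 stood above the other arrays in this list (6.81 and 6.57, others up to 6.21). They also did in the endothelial list (7.39 and 7.29, others up to 6.94). The same held for the epicardial list (7.33 and 7.61, others up to 6.90) and the pericyte list (8.18 and 8.11, others up to 7.88). The cardiomyocyte list had a mean of 12.30 to 12.82 before NHD, 12.49 to 12.94 after NHD, 12.17 to 12.19 with control plasma and 12.63 to 12.65 with phenylephrine. Its lowest and its highest before NHD array, replicates 3 and 6, were both arrays with high fibroblast markers. Against control plasma, 4 of these 17 genes rose before NHD, 8 after NHD and 5 with phenylephrine, and 0 fell, where 2.88%, 12.9% and 8.54% of all probe sets were called higher.

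With phenylephrine, further non-myocyte lists stood higher beside the fibroblast markers. Against control plasma, 8.54% of all probe sets were called higher. The pericyte list had a mean of 8.72 and 8.80 against 7.87 to 7.92 with control plasma, and 2 of 5 rose, Cspg4 (1.40 ± 0.27) and Rgs5 (1.65 ± 0.35). Of 6 epicardial and mesothelial genes 3 rose, the retinoic acid enzyme Aldh1a2 (1.49 ± 0.30), the keratin Krt19 (0.87 ± 0.22) and Upk1b (1.59 ± 0.46). Of 11 endothelial genes 2 rose, the junction protein Cdh5 (0.51 ± 0.11) and the receptor Kdr (1.89 ± 0.63). Calls against control plasma in these lists were not limited to phenylephrine. After NHD, Kdr rose too (1.58 ± 0.49, adjusted p = 0.024 in limma), where 12.9% of all probe sets were called higher. Before NHD, 1 endothelial gene rose, where 2.88% of all probe sets did. Of 5 pericyte genes, 1 rose and 1 fell after NHD, where 28.2% of all probe sets were called in either direction. Of 8 smooth muscle and myofibroblast genes 1 fell, Acta2, smooth muscle actin (-0.40 ± 0.12; 10.2% of all probe sets were called lower), and 0 of 12 leukocyte genes and 0 of 6 neural genes were called (1 in each list at an unadjusted p under 0.05, as were 32.3% of all probe sets).

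**Figure D4:**
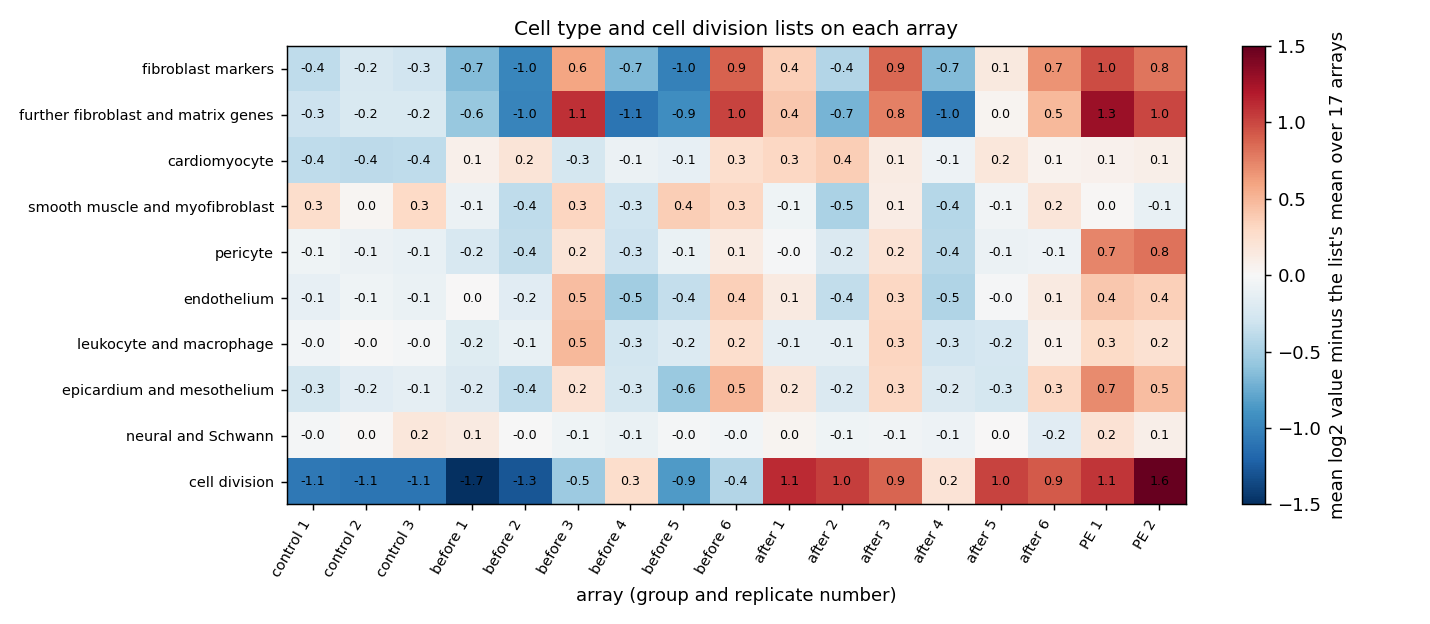
Mean log2 value of each gene list on each array minus that list's mean over the 17 arrays (colour and digits, log2 units; columns are arrays by group and replicate number, PE is phenylephrine). Both fibroblast lists are high on replicates 3 and 6 of the before and after NHD groups and with phenylephrine. On before NHD replicates 3 and 6 the pericyte, endothelial, leukocyte and epicardial lists are high as well. The cell division list is high on nearly all after NHD and phenylephrine arrays.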

How the data were processed

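The deposited table holds log2 values that the authors made with RMA, per the submitters' processing notes, with no version given. RMA removes a shift shared by most genes and compresses differences near the floor and ceiling. Of 29214 probe sets, 15310 carried 1 gene symbol; symbols were brought up to date by Entrez number with the GRCr8 gene table, leaving 14506 genes, each read from its brightest probe set.

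All probe sets on all 17 arrays were fitted together in limma 3.58.1 under R 4.3.3, with a mean for each of 4 groups, moderated by eBayes (residual df 13, prior df 3.32). P-values were adjusted by Benjamini-Hochberg over 29214 probe sets and called below 0.05. Exact permutation tests used scipy 1.17.1. The fit was tried on simulated data with independent noise and the same spread in all groups. Those data lacked the unequal spreads and correlated arrays seen here, so that run does not bear on them. No pair of arrays was identical.

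The markers, gene lists, tests and alternatives were chosen with earlier results of these data known. All 10 markers were named, with up to 3 genes of a list by smallest p where markers passed, and the 5 genes most like the markers' mean. Further genes called in a list of few calls were named after their values were seen. Alternatives were a brightness filter, a single probe set for each gene, repeated quantile normalization, a trended and robust prior, fits restricted to the groups compared, array weights, a block for the replicate number, the array SD as a covariate, omission of the samples numbered 4, and omission of each array in turn.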

Additional observations from a re-analysis of the deposited data

How the results depend on the processing

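The count of called markers moved with the settings in 5 of 6 comparisons and stayed at 0 for before NHD against control plasma under all of them. After against before NHD, 1 was called in the main fit, 0 in a fit of the compared groups alone, 2 with array weights and 0 to 1 with 1 array left out. After NHD against control plasma, 2 became 5 with array weights, 3 with the replicate block (Thy1 added, 1.18, adjusted p = 0.032), 1 with the array SD as a covariate, and 1 to 2 with 1 array left out. Phenylephrine against control plasma, 2 became 10 in the compared groups alone, 7 with array weights, 9 with the replicate block, and 1 to 3 with 1 array left out. Phenylephrine against before NHD, 1 became 2 on the brighter probe sets, 0 in the compared groups alone, 5 with array weights, 7 with the replicate block, 2 with the array SD as a covariate, 2 without the samples numbered 4, and 0 to 3 with 1 array left out. Phenylephrine against after NHD, 0 became 1 with the replicate block (Ddr2, 2.58, adjusted p = 0.047) and stayed at 0 with any 1 array left out. Against control plasma, the share called after NHD was 51.1% with array weights, 31% with the block and 10.3% with the array SD. Phenylephrine had 43.1% with array weights and 25.1% with the block. After against before NHD, 10.9% were called with array weights, and 2.38% with the block for phenylephrine against after NHD. The cause of these moves was not tested.

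Same-numbered before and after NHD arrays had deviations from the group means that correlated at 0.54, 0.68, 0.64 and 0.30 across genes for replicates 2, 3, 4 and 6, but at 0.13 and 0.00 for replicates 1 and 5. The correlation was highest with the same number for replicates 2, 3 and 4 only. Because not every pair was above 0.1 and no label ties the numbers to a donor or culture, the numbers were not taken as pairs, which leaves a shared source for some of them possible. Among the 12 uremic arrays the number held 62.7 to 94.9% of the variance of the 8 markers other than S100a4 and S100a6, 6.53% for S100a4 and 31.7% for S100a6, with a median of 54.2% over all named genes. With 6 numbers for 12 arrays, values without any tie to the number would also give it a large share. By number, S100a4 and Vim were higher after NHD in 6 of 6 and Fap in 0 of 6. The differences nearest 0 were 0.03 for S100a4, 0.01 for Vim and -0.01 for Fap. The remaining markers were higher after NHD in 3 to 5 of 6. With the block, S100a4 after against before NHD was 1.03 (adjusted p = 0.049).

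Signs turned only where a marker was called in neither setting. Before NHD against control plasma, Mfap5 was -0.09 with array weights, and with the array SD as a covariate S100a6 was -0.07, Thy1 -0.07, Vim -0.01, Fap -0.08 and Mfap5 -0.21. Tcf21 was 0.03 without the samples numbered 4. With 1 array left out, Tcf21 ran from -0.37 to 0.10, Fap from -0.06 to 0.26, Mfap5 from -0.12 to 0.22 and Pdgfra from -0.50 to 0.00. After NHD against control plasma, Fap was 0.09 after a second quantile normalization, 0.01 with the replicate block and 0.04 without the samples numbered 4, Ddr2 was 0.15 with array weights and 0.23 without the samples numbered 4, and with the array SD as a covariate Pdgfra was -0.35 and Tcf21 -0.19. With 1 array left out, Ddr2 ran from -0.34 to 0.23 and Fap from -0.20 to 0.07. Using each marker's next brightest probe set gave no value, since each has 1. The values used here carry no measure of background, so whether a marker stood above it on an array was not tested.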
